A study of Mus musculus with 43 samples.

Results

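The comparison was between cauda sperm of Rnase9-12 KO mice and cauda sperm of WT mice, measured by small RNA sequencing. The members were the 8 sperm libraries of the series, 4 WT and 4 KO, of 43 libraries in all, and every RNA class in their count table was used. Both groups were FVB mice 8 to 12 weeks old. The KO mice carried a CRISPR/Cas9 deletion of a gene cluster on chromosome 14 that holds Rnase9, Rnase10, Rnase11 and Rnase12, and the WT mice did not carry it. RNA of 3 mice was pooled for each library, so a replicate is a pool and not a single animal. All libraries were made with OTTR-seq after PNK treatment, which removes the 3′ phosphates that nucleases leave on RNA. The RNAs counted were noncoding RNAs, so the deleted genes could not be read in these libraries and the labels could not be checked against them.

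Sperm leave the testis with little new transcription ahead of them, and their small RNAs are known to change while they pass along the epididymis. tRNA fragments (tRFs) come from cleavage of mature tRNAs, often in the anticodon loop by enzymes of the RNase A family, and rRNA-derived small RNAs (rsRNAs) are fragments of ribosomal RNA. Rnase9 to Rnase12 are members of that family that are expressed in the epididymis, and they lack residues that catalysis is known to need. tRFs are grouped here by where the reads lie: on the 5′ end of the tRNA (5′ tRFs), on the 3′ end (3′ tRFs), or on neither end (other tRFs).

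Depth was very uneven. The summed counts were 52607365, 2899859, 1134840 and 3025269 in WT replicates 1 to 4 and 44325673, 42764979, 62128314 and 3618739 in KO replicates 1 to 4. WT replicate 1 and KO replicates 1, 2 and 3 were therefore deep, and the other 4 libraries, 3 of them WT, were shallow, so genotype and depth can be told apart only in part. WT replicate 4 stood apart from its group: its log2 CPM (counts relative to the library total, scaled by TMM, which sets the scale from RNAs that differ little) correlated with WT replicates 1 to 3 at 0.878, 0.808 and 0.807, and with KO replicates 1 to 4 at 0.918, 0.917, 0.928 and 0.926. These correlations are across RNAs, which are not independent replicates. KO replicates 2 and 3 were closest to each other at 0.995, and WT replicate 1 was closer to these KO libraries, at 0.977 and 0.971, than to any WT library. Results are therefore given with all 8 libraries, without WT replicate 4, and within the deep and the shallow libraries. WT replicate 4 was singled out from these same values. Leaving out a WT library that lies near the KO libraries can be expected to widen the gap between the groups. Calls and adjusted p without it show how far the results rest on it, and they are not separate support.

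The sequences below are of RNAs on which the results turn. The tRNA genes were matched to the counted tRNAs by anticodon only, and the capitals mark the anticodon at positions 34 to 36. Val-CAC is shown for 5′ tRFs whose groups overlapped widely, Ser-GCT for a middle fragment with separate groups, and Ser-TGA for fragments that were far higher in 1 WT library than in the others.
tRNA-Val-CAC, chr13:23446142-23446214, minus strand: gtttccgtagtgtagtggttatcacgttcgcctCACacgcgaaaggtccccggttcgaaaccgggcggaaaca
tRNA-Ser-GCT, chr13:22050686-22050767, minus strand: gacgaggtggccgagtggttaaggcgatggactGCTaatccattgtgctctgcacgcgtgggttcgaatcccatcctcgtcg
tRNA-Ser-TGA, chr13:23518146-23518227, plus strand: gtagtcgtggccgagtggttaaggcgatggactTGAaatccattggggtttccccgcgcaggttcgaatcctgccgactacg
The mature miRNAs belong to genes described further on, and the capitals mark the seed, bases 2 to 8. Counts were made on the miRNA gene and not on an arm.
miR-16-5p, Mir16-2 gene, chr3:69009918-69009939, plus strand: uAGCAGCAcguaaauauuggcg
miR-19b-3p, Mir19b-1 gene, chr14:115044358-115044380, plus strand: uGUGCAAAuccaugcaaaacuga
miR-5121, Mir5121 gene, chr7:45126925-45126945, minus strand: aGCUUGUGaugagacaucucc
miR-451a, Mir451a gene, chr11:78073186-78073207, plus strand: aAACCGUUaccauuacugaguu
miR-202-5p, Mir202 gene, chr7:139957732-139957752, minus strand: uUCCUAUGcauauacuucuuu
All coordinates are on GRCm38 (mm10), from RefSeq. Mir16-2 lies in an intron of Smc4, Mir19b-1 in an exon of the lncRNA Mir17hg, and Mir5121 overlaps an exon of Rpl13a. Mir202 lies in an exon of the lncRNA Gm2044 and in an intron of Gm16201 on the other strand, and no host gene was annotated for Mir451a. The Ser-GCT gene overlaps an exon of Gm48356 on the other strand, and the other tRNA genes lie in none of the protein-coding or long noncoding genes that GENCODE vM21 annotates.

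Most tRFs had lower values in KO sperm and most 5S rRNA repeats and U1 snRNAs had higher values, but no single RNA passed the test when all 8 libraries were used. An RNA was called where its Benjamini-Hochberg adjusted p was under 0.05 and its log2 fold change lay beyond 1 in either direction. With edgeR's quasi-likelihood test, 0 of 2480 tested RNAs were called lower in KO and 0 higher (0% in each direction), and the smallest adjusted p was 0.116. At an unadjusted p under 0.05, 235 RNAs were lower (9.48%) and 199 higher (8.02%). DESeq2 with default settings called 135 lower (4.44%) and 5 higher (0.165%) of the 3039 RNAs to which it gave an adjusted p. Of the RNAs lower by DESeq2, 98 were tRFs and 17 were rRNA repeats, and the higher ones were all rRNA repeats, 3 of 5S, 1 of 18S and 1 of 28S. Without WT replicate 4, edgeR called 207 of 2836 RNAs lower (7.30%), 159 of them tRFs, and 119 higher (4.20%), 59 of them 5S repeats. With depth class as a term of the model edgeR called 0 in each direction, where an unadjusted p under 0.05 went with 173 lower and 88 higher RNAs, and DESeq2 called 43 lower, 35 of them tRFs, and 2 higher.

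The WT and KO libraries did not overlap in 31 RNAs with the KO values below (1.25%) and in 202 with the KO values above (8.15%), and with library size only in 77 and 67. Without WT replicate 4 this held for 258 RNAs (10.4%) and 540 RNAs (21.8%).

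The balance of lower and higher RNAs depended on the scaling. Of the RNAs with an unadjusted p under 0.05 in edgeR, 54.2% were lower in KO with TMM scaling, 78.9% with DESeq2 size factors or with TMM factors computed without tRFs, tRNAs and rsRNAs, and 93.3% with library size only. The median log2 fold change of all tested RNAs was -0.0028 with TMM, and it was -0.19, -0.20 and -0.31 with the other scalings in that order. For the RNA classes below, a direction is given only where it held under each scaling, or else the exception is named. Values of single RNAs and of marker lists are with TMM unless stated, and values near 0 can change sign with the scaling.

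5′ tRFs had the lowest median of the 3 tRF classes. Their median log2 fold change was -0.87, with 159 of 167 tested below 0, beside 50.2% of all tested RNAs. The medians were -0.42 for 3′ tRFs (118 of 170 below 0) and -0.62 for other tRFs (171 of 196 below 0). In edgeR 67 5′ tRFs, 24 3′ tRFs and 63 other tRFs were lower with an unadjusted p under 0.05, and 0, 5 and 0 were higher. Of all RNAs, 9.48% were lower and 8.02% higher at that limit. Without WT replicate 4 the medians were -1.13, -0.66 and -0.96. In that fit edgeR called 56 of 177 5′ tRFs, 38 of 176 3′ tRFs and 65 of 207 other tRFs lower and 0 higher. Of all RNAs, 7.30% were called lower and 4.20% higher in that fit. Within the deep libraries, where 1 WT library stands against 3 KO libraries, the medians were -1.82, -0.74 and -0.94, and within the shallow libraries, 3 WT against 1 KO, they were -1.20, -0.54 and -1.09. The class medians of tRFs were thus below 0 with and without WT replicate 4 and in both depth classes, while the edgeR calls came only without that library. tRFs are counted on each tRNA that a read matched equally well, so isodecoders share reads and their counts are not independent. Full-length tRNAs were listed 218 times and 0 of them passed the filter on low counts.

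**Figure D1:**
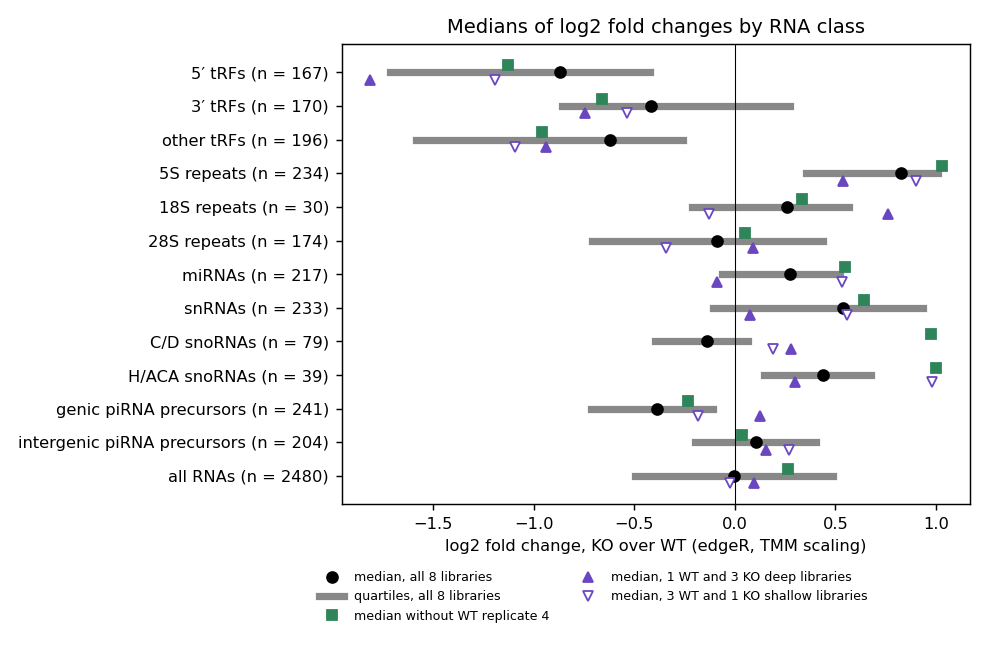
Median log2 fold change of KO over WT by RNA class on the horizontal axis, from edgeR with TMM scaling. Black points and grey bars give the median and quartiles with all 8 libraries, green squares the median without WT replicate 4, and purple triangles the medians within the deep (filled) and shallow (open) libraries. All 3 tRF classes lie left of 0 in every fit drawn, and 5S repeats lie right of 0, while C/D snoRNAs move from -0.14 to 0.98 when WT replicate 4 is left out.

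Summing tRFs by anticodon and fragment type put isodecoders that share reads into a single entry, and it left 148 sums. A read counted on several isodecoders is still added for each of them. The paper states that tRNA counts were limited to reads that fit a single amino acid and anticodon. 5′ tRFs of Val-CAC and Val-AAC still had close counts, 95493 and 91585 in WT replicate 1, and 75235 and 77621 in KO replicate 3. Whether sums of different anticodons share reads was not tested. The sums are therefore not taken as independent. Of these, 143 had a log2 fold change below 0, namely 48 of 48 5′ sums, 45 of 49 3′ sums and 50 of 51 other sums. The median was -1.29 for 5′ sums, -0.91 for 3′ sums and -0.87 for other sums. In edgeR 55 sums were lower with an unadjusted p under 0.05, beside 8.50% of all entries of that table, 0 were higher, beside 4.01%, and 0 were called (0% of entries), with a smallest adjusted p of 0.183. DESeq2 called 20 lower, 8 of them 5′, 2 of them 3′ and 10 other, and 0 higher, beside 2.42% and 0.0914% of all entries. Without WT replicate 4 edgeR called 54 lower, 20 of them 5′, 16 of them 3′ and 18 other, and 0 higher, beside 4.37% and 0.248% of all entries. Within the deep or the shallow libraries 1 side is a single library, so counts of sums are not given there. With all 8 libraries the groups did not overlap in 4 of the 148 sums, all 4 lower in KO. Of all entries of that table, 1.34% were lower and 6.49% higher with no overlap. Without WT replicate 4 this held for 98 sums lower and 0 higher, beside 8.64% and 13.2% of all entries.

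The sums with the smallest p were not those counted most. The values in this text are CPM scaled by TMM, which are not divided by length. 5′ tRFs of iMet-CAT, the tRNA that starts translation, were at 175, 176, 172 and 14.1 CPM in WT replicates 1 to 4. They were at 5.97, 22.9, 19.9 and 5.56 CPM in KO replicates 1 to 4. WT replicates 1 to 3 lay close together and far above all KO libraries, and WT replicate 4 lay among the KO libraries. The log2 fold change was -3.29 (SE 0.77, edgeR adjusted p = 0.183), and it was -3.61 without WT replicate 4 (edgeR adjusted p = 0.00235). The DESeq2 adjusted p with all libraries was 0.00146.

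5′ tRFs of Gln-CTG, a glutamine tRNA, behaved alike in their values. They were at 178, 103, 199 and 12.6 CPM in WT and at 4.91, 23.7, 17.3 and 12.5 CPM in KO. WT replicate 4 was again level with the KO libraries, and the log2 fold change was -3.07 (SE 0.75, edgeR adjusted p = 0.183), or -3.40 without that library (edgeR adjusted p = 0.00235). 3′ tRFs of Lys-CTT, a lysine tRNA, were at 109, 326, 195 and 28.2 CPM in WT and at 33.0, 18.01, 22.6 and 13.6 CPM in KO. Only KO replicate 1 reached above the lowest WT library. The log2 fold change was -2.91 (SE 0.66, edgeR adjusted p = 0.183). The edgeR adjusted p was 0.00235 without WT replicate 4, and DESeq2 gave an adjusted p of 0.000935 with all libraries.

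Other tRFs of Ser-GCT, read from the middle of the tRNA printed above, were at 25.6, 168, 168 and 12.6 CPM in WT. They were at 8.77, 9.78, 9.73 and 8.62 CPM in KO. All KO libraries lay in a narrow band just below the lowest WT library, with no overlap, and the log2 fold change was -3.33 (SE 0.76, edgeR adjusted p = 0.183). Other tRFs of Ile-AAT were at 52.3, 121, 186 and 19.6 CPM in WT and at 17.5, 14.7, 14.3 and 10.01 CPM in KO, also with no overlap, with a log2 fold change of -2.73 (SE 0.63). Other tRFs of Leu-TAG were at 63.4, 319, 256 and 15.3 CPM in WT and at 20.4, 17.3, 18.4 and 11.4 CPM in KO, where WT replicate 4 fell within the KO range, and the log2 fold change was -3.27 (SE 0.77). Both had an edgeR adjusted p of 0.183. For these 3 sums the edgeR adjusted p was 0.00235 without WT replicate 4, and with all libraries DESeq2 gave adjusted p of 0.000935 for Ser-GCT, 0.000943 for Ile-AAT and 0.00116 for Leu-TAG. In these 3 sums the shallow WT replicates 2 and 3 held more than the deep WT replicate 1. The log2 fold changes within the deep libraries were -1.45 for Ser-GCT, -1.77 for Ile-AAT and -1.77 for Leu-TAG, and within the shallow libraries they were -3.86, -3.53 and -4.23. With depth class as a term they were -2.56, -2.57 and -2.91 (edgeR adjusted p of 0.649, 0.576 and 0.649). The size of the difference thus moved with depth class, while its direction did not.

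The 5′ tRFs that are counted most in sperm showed smaller differences. 5′ tRFs of Gly-GCC, a glycine tRNA whose 5′ fragment is well known in sperm, were at 7439, 1531, 3879 and 421 CPM in WT. They were at 930, 2413, 2006 and 913 CPM in KO. The lowest WT library lay below all KO libraries and the highest above them, so the groups overlapped. The log2 fold change was -1.08 (SE 0.67, edgeR adjusted p = 0.492), with -1.42 without WT replicate 4 (edgeR adjusted p = 0.140), -2.07 within the deep libraries, which rests on WT replicate 1, and -1.16 within the shallow ones. It was -0.40 without WT replicate 1, and edgeR did not call it. 5′ tRFs of Gly-CCC had a log2 fold change of -0.53 (SE 0.53, edgeR adjusted p = 0.712), and those of Glu-TTC, a glutamate tRNA, had -0.59 (SE 0.55, edgeR adjusted p = 0.687).

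5′ tRFs of Val-CAC were at 1713, 587, 1050 and 312 CPM in WT and at 421, 1511, 1101 and 381 CPM in KO. The groups overlapped, and the log2 fold change was -0.10 (SE 0.57, edgeR adjusted p = 0.951), but it was -0.77 within the deep libraries, -0.85 within the shallow libraries and -0.76 with depth class as a term. 5′ tRFs of Val-AAC ran from 329 to 1643 CPM in WT and from 417 to 1538 CPM in KO, with a log2 fold change of -0.01 (SE 0.55, edgeR adjusted p = 0.998), which was -0.66 within the deep libraries, -0.71 within the shallow libraries and -0.64 with depth class as a term. The values within a depth class each rest on a single library of WT or of KO. With depth class as a term the edgeR adjusted p was 0.853 for Val-CAC and 0.914 for Val-AAC. When single libraries were left out, the log2 fold changes ran from -0.55 to 0.31 for Val-CAC. For Val-AAC they ran from -0.44 to 0.38. Both SEs leave room for differences of about the size seen in Gly-GCC. Fragments from the 3′ end of the same tRNAs had lower values in KO. 3′ tRFs of Val-CAC were at 159, 126, 210 and 27.6 CPM in WT and at 57.2, 66.5, 65.5 and 49.2 CPM in KO, where only WT replicate 4 was under the KO range. Their log2 fold change was -1.13 (SE 0.54, edgeR adjusted p = 0.373) and -1.42 without WT replicate 4 (edgeR adjusted p = 0.0345). The difference between the 5′ and 3′ ends was not tested.

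Among the rest of the 6 anticodons chosen for naming, the 5′ tRFs of Gln-TTG, another glutamine tRNA, were at 45.6, 15.96, 39.2 and 11.6 CPM in WT and at 2.39, 12.6, 9.82 and 7.51 CPM in KO. Only KO replicate 2 reached past the lowest WT library, and the log2 fold change was -1.80 (SE 0.59, edgeR adjusted p = 0.259). 3′ tRFs of Glu-TTC were at 97.9, 66.7, 130 and 3.06 CPM in WT and at 23.5, 30.2, 28.7 and 16.7 CPM in KO, with a log2 fold change of -1.58 (SE 0.75, edgeR adjusted p = 0.373) that became -1.93 without WT replicate 4 (edgeR adjusted p = 0.00962). Over the 18 sums of these anticodons the log2 fold changes ran from -1.80 to -0.01. The sums with the highest mean CPM in WT were the other tRFs of Cys-GCA, the other and 5′ tRFs of Gly-GCC, the 3′ tRFs of Leu-CAA and the other tRFs of Lys-CTT. Other tRFs of Cys-GCA were at 12358, 5282, 7713 and 1718 CPM in WT and at 2771, 6650, 5105 and 2438 CPM in KO. They overlapped, and their log2 fold change was -0.67 (SE 0.52, edgeR adjusted p = 0.614). The log2 fold changes of the other tRFs of Gly-GCC, the 3′ tRFs of Leu-CAA and the other tRFs of Lys-CTT were -0.19, -0.63 and -0.49.

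**Figure D2:**
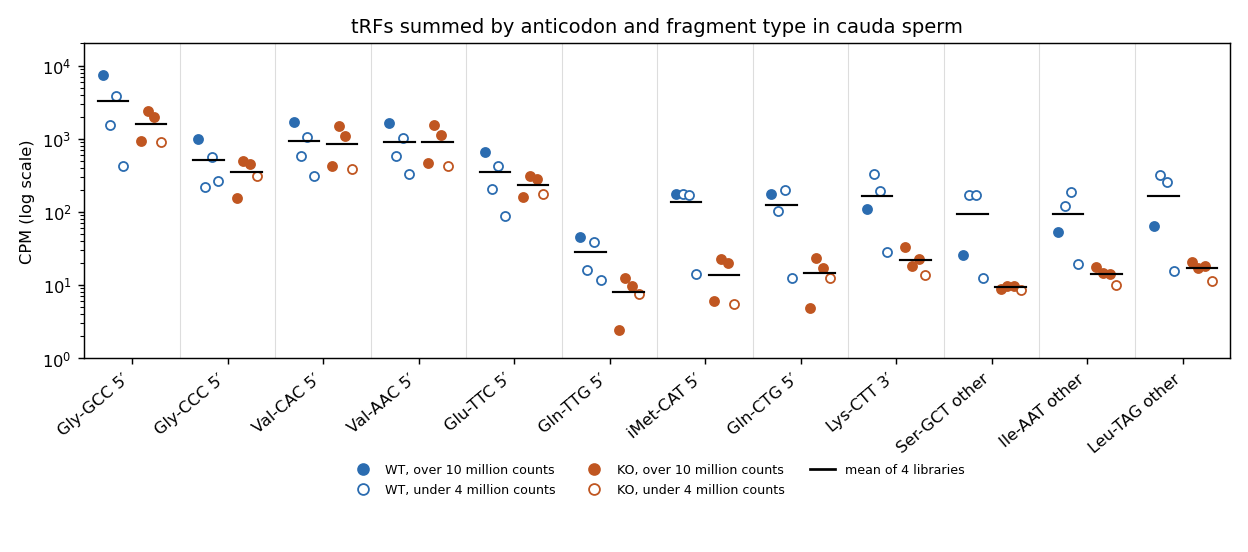
CPM (log scale) of 12 tRF sums in each library, by anticodon and fragment type. Blue points are WT and orange points KO, filled for deep and open for shallow libraries, and bars are means of 4 libraries. The groups overlap for 5′ tRFs of Val-CAC and Val-AAC, where the log2 fold changes were -0.77 and -0.66 within the deep (filled) and -0.85 and -0.71 within the shallow (open) libraries, and for iMet-CAT and Gln-CTG only WT replicate 4, the lowest blue point, lies within or near the orange points.

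Within the 5′ tRFs, the share of Gly-GCC was 24.3% ± 8.2 in WT and 24.99% ± 0.54 in KO (SD, n = 4). Val-AAC held 8.68% ± 2.62 in WT and 13.4% ± 1.83 in KO, and Val-CAC held 8.67% ± 2.19 in WT and 12.8% ± 2.19 in KO. Glu-CTC held 6.02% ± 0.95 in WT and 9.69% ± 0.75 in KO, with WT libraries at 6.88, 4.75, 6.59 and 5.86% and KO libraries at 9.0, 9.26, 9.81 and 10.7%. The Glu-CTC shares did not overlap, while WT replicate 4, at 12.6% for Val-AAC and 11.9% for Val-CAC, lay within the KO ranges of 11.4 to 15.4% and 10.4 to 15.2%, and Glu-CTC was singled out after its values were seen. The mean shares of these 3 anticodons were thus higher in KO, in samples where all 5′ sums had log2 fold changes below 0, and these shares were not tested. Val-AAC and Val-CAC had close shares in each library and may not be separate observations.

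A few of the lowest log2 fold changes depended on 1 WT library. Other tRFs of Ser-AGA were at 9.98, 46.3, 538 and 5.82 CPM in WT and at 6.38, 6.25, 4.99 and 6.12 CPM in KO, and those of Ser-TGA, printed above, were at 9.62, 28.3, 285 and 3.06 CPM in WT and at 6.17, 6.07, 4.64 and 4.17 CPM in KO. WT replicate 3, the shallowest library, stood far above the rest and WT replicate 2 came next, and the log2 fold change of Ser-AGA was -4.65 with it and -1.88 without it, and that of Ser-TGA was -3.93 with it and -1.44 without it. RNAs antisense to serine tRNAs followed the same library. The 4 of them that were tested share their reads, and tRNA-Ser-AGA-1 antisense was at 0.391, 8.97, 165 and 2.53 CPM in WT and between 0.319 and 1.72 CPM in KO, with log2 fold changes of -6.22 with and -2.62 without WT replicate 3. The genic piRNA precursor pi-Hmbox1.1 was at 18.2, 105, 1317 and 24.9 CPM in WT and between 16.2 and 31.5 CPM in KO, with a log2 fold change of -3.97 (SE 1.15, edgeR adjusted p = 0.154), which was -1.13 without WT replicate 3. The serine sums and antisense RNAs were chosen after their values were seen.

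Fragments of 5S rRNA, a small RNA of the large ribosomal subunit, had higher values in KO. The 5S rRNA reference sequence was at 967, 502, 932 and 1598 CPM in WT and at 2514, 1623, 1409 and 1793 CPM in KO. WT replicate 4 lay within the KO range and the other WT libraries below it, and the log2 fold change was 0.88 (SE 0.40, edgeR adjusted p = 0.275), or 1.26 without WT replicate 4 (edgeR adjusted p = 0.0558). Of the 5S repeats, which are scattered copies in the genome that share reads, 29 of 234 were below 0 and the median was 0.83. With an unadjusted p under 0.05 in edgeR, 95 were higher and 2 lower, beside 8.02% and 9.48% of all RNAs, and in 61 all KO libraries lay above the WT libraries, beside 8.15%. In 19 of these 61, each shallow WT library held fewer than 10 counts. Among the 129 5S repeats with at least 10 counts in all 8 libraries the median was 0.67, 15 were higher with an unadjusted p under 0.05 and 34 lay above WT with no overlap, beside 2.61% and 8.55% of all RNAs at that limit. The median was 1.03 without WT replicate 4, 0.54 within the deep and 0.90 within the shallow libraries, and 0.45 with library size only. Under that last scaling 16 were higher and 6 lower with an unadjusted p under 0.05 in edgeR, beside 1.01% and 14.0% of all RNAs. In 24 all KO libraries lay above the WT libraries, beside 2.70% of all RNAs. The number of 5S repeats past each limit thus depended on the scaling, and their median did not change sign.

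The larger rRNAs had smaller log2 fold changes than 5S, and the difference between them was not tested. The log2 fold changes were 0.30 (SE 0.39) for 18S, 0.45 (SE 0.34) and 0.44 (SE 0.34) for both 28S sequences and -0.22 (SE 0.60) for 5.8S, with edgeR adjusted p of 0.782, 0.561, 0.568 and 0.896. 5.8S was at 10537, 11259, 6570 and 51840 CPM in WT and at 19855, 10398, 10339 and 28271 CPM in KO, and without WT replicate 4 its log2 fold change was 0.91. Without that library it was 0.44 for 18S and 0.62 and 0.59 for the 28S sequences, so all nuclear rRNA sequences then had values above 0. The mitochondrial rRNAs had log2 fold changes of 0.25 (small subunit) and 0.40 (large subunit), and their groups overlapped. With library size only, the log2 fold change was -0.02 for 18S and -0.03 for the small mitochondrial subunit. The median over 174 28S repeats was -0.09. With an unadjusted p under 0.05 in edgeR, 17 of them were lower and 9 higher, beside 9.48% and 8.02% of all RNAs. Over 30 18S repeats the median was 0.26, which turned to -0.08 with library size only.

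Single rRNA repeats were at the top of the list by p in both directions. rmsk_18S_139, an 18S copy, was at 24.2, 26.9, 19.0 and 18.1 CPM in WT and at 249, 118, 91.6 and 63.8 CPM in KO. The groups lay far apart, and the log2 fold change was 2.57 (SE 0.50, edgeR adjusted p = 0.116), 2.50 within the deep and 1.63 within the shallow libraries. The adjusted p was 0.00459 without WT replicate 4, and DESeq2 gave 0.000245 with all libraries. In the other direction, rmsk_28S_652 was at 33.1, 211, 78.8 and 30.0 CPM in WT and at 0.744, 7.55, 5.74 and 6.18 CPM in KO, with no overlap and a log2 fold change of -4.13 (SE 0.83, edgeR adjusted p = 0.116). rmsk_28S_927 was at 26.4, 763, 59.8 and 10.1 CPM in WT and between 2.75 and 4.05 CPM in KO, where WT replicate 2 stood high, and its log2 fold change was -5.96, or -3.39 without that library. Both 28S repeats were chosen after their values were seen.

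snRNAs, the RNAs of the spliceosome, gave the other class with many values higher in KO. Of 233 tested, 62 were higher and 15 lower with an unadjusted p under 0.05 in edgeR, beside 8.02% and 9.48% of all RNAs. All KO libraries lay above the WT libraries in 75, beside 8.15% of all RNAs. The median log2 fold change was 0.54, but only 0.08 within the deep libraries. These counts turned with the scaling: with library size only, 1 snRNA was higher and 17 lower with an unadjusted p under 0.05 in edgeR (1.01% and 14.0% of all RNAs), 32 had all KO libraries above the WT libraries (2.70% of all RNAs), and the median was 0.21. Among the 126 snRNAs with at least 10 counts in all libraries, 6 were higher and 3 lower with an unadjusted p under 0.05 (2.61% and 12.3% of all RNAs at that limit). U1 snRNAs, taken as genes with at least 75% identity to Rnu1b1, which share reads, had a median of 0.78 over 59 genes, with 2 below 0. Their summed level was 32862, 14423, 19366 and 27010 CPM in WT and 35257, 44314, 39529 and 40984 CPM in KO. All KO sums lay above all WT sums, with means of 23415 ± 8153 in WT and 40021 ± 3755 in KO (SD, n = 4). Among the 52 U1 genes with at least 10 counts in all libraries, 32 lay above WT with no overlap (8.55% of all RNAs at that limit). With library size only, the U1 sums were 39928, 12756, 32301 and 24711 CPM in WT and 22447, 49290, 42263 and 33009 CPM in KO, so the groups overlapped through KO replicate 1, 0 of the 59 genes were free of overlap, and the median of 0.43 stayed above 0. U6 snRNAs had a median of 1.06 over 48 genes, and 30 were higher with an unadjusted p under 0.05, but in each of these 30 the shallow WT libraries held fewer than 10 counts, and the summed U6 level overlapped, with 95.6, 138, 45.96 and 171 CPM in WT and 170, 130, 123 and 168 CPM in KO. The U2 genes had a median of 0.44 and the U5 genes -0.12. The snRNA with the smallest p was Gm22985, at 25.3, 46.8, 17.5 and 4.34 CPM in WT and at 3.72, 7.38, 6.43 and 3.78 CPM in KO, with a log2 fold change of -2.12 (SE 0.62, edgeR adjusted p = 0.159).

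Of other short noncoding RNAs, 0 were called with all 8 libraries, and Vaultrc5 was among those called without WT replicate 4. Vaultrc5, the RNA of vault particles, was at 71.2, 35.9, 39.7 and 90.7 CPM in WT and at 153, 96.8, 97.7 and 117 CPM in KO. The groups did not overlap, and the log2 fold change was 0.97 (SE 0.44, edgeR adjusted p = 0.272), or 1.29 without WT replicate 4 (edgeR adjusted p = 0.0480). Rpph1, the RNA of RNase P, which trims tRNA 5′ ends, was at 24.7, 15.99, 12.7 and 23.5 CPM in WT and at 31.9, 29.6, 25.7 and 29.5 CPM in KO, with no overlap and a log2 fold change of 0.59 (SE 0.41, edgeR adjusted p = 0.526). With library size only the groups stayed apart for Vaultrc5 and overlapped for Rpph1, and the log2 fold changes were 0.59 and 0.26. The Y RNAs Rny1 and Rny3, which bind the Ro protein, had log2 fold changes of 0.65 (SE 0.41) and 0.84 (SE 0.45), with edgeR adjusted p of 0.484 and 0.385 and groups that overlapped, and Rny3 had 1.28 without WT replicate 4, with no overlap (edgeR adjusted p = 0.0533). Rn7sk, which holds back the elongation factor P-TEFb, and Rmrp, the RNA of RNase MRP, had 0.32 (SE 0.39) and 0.08 (SE 0.46). C/D snoRNAs, which guide methylation of rRNA, had a median of -0.14 over 79 that became 0.98 without WT replicate 4, which held 1.80% of its counts on snoRNAs and scaRNAs while the other WT libraries held 0.445 to 0.589%. H/ACA snoRNAs, which guide pseudouridylation, had a median of 0.44 over 39, and 1.002 without WT replicate 4.

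**Figure D3:**
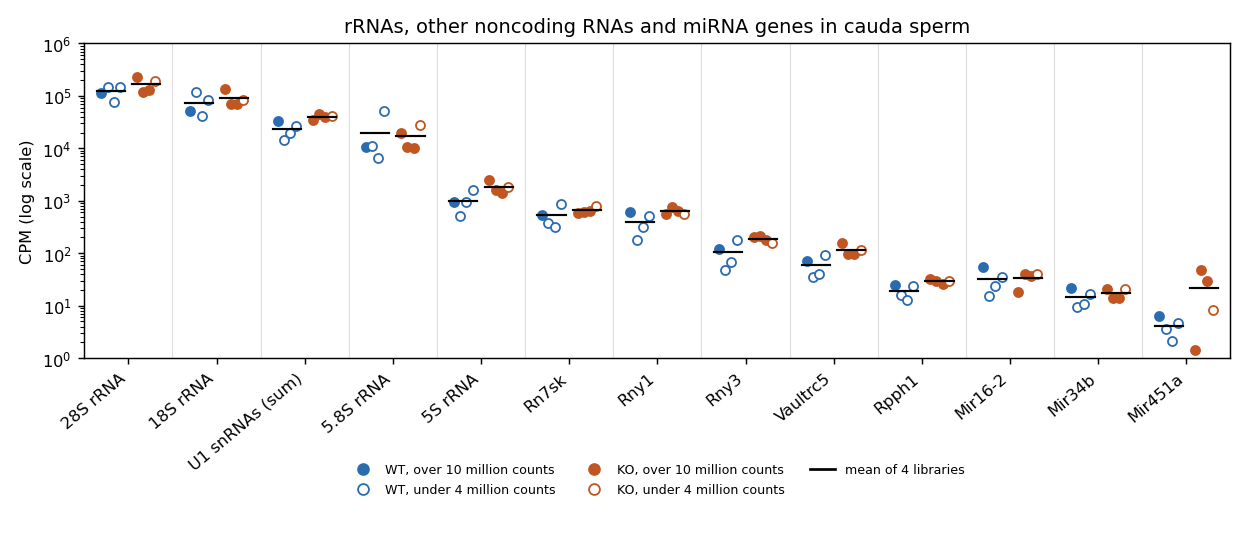
CPM (log scale) in each library for rRNA sequences, summed U1 snRNAs, other noncoding RNAs and miRNA genes. Blue points are WT and orange points KO, filled for deep and open for shallow libraries, and bars are means of 4 libraries. All KO points lie above all WT points for U1 snRNAs, Vaultrc5 and Rpph1 on this TMM scale, of which only Vaultrc5 stays apart with library size only, and the groups overlap for the rest.

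miRNA genes, whose products repress mRNAs through the seed, did not follow the tRFs. Of 217 tested, 63 had a log2 fold change below 0, and the median was 0.28. In edgeR 2 were lower and 6 higher with an unadjusted p under 0.05, beside 9.48% and 8.02% of all RNAs. The median was 0.55 without WT replicate 4, -0.09 within the deep libraries and -0.04 with library size only, so its direction is not given. Depth limits this class: 18 miRNA genes had 10 counts in all 8 libraries, with a median of 0.09. Mir16-2 was at 53.4, 15.6, 23.3 and 35.4 CPM in WT and at 17.9, 39.7, 36.3 and 39.5 CPM in KO, with a log2 fold change of 0.05 (SE 0.49), and Mir16-1, which encodes the same mature miR-16-5p, had 0.06. Mir19b-1 ran from 22.7 to 49.4 CPM in WT and from 21.7 to 31.9 CPM in KO, with a log2 fold change of -0.30 (SE 0.42). Mir5121 was at 53.5, 18.3, 30.1 and 216 CPM in WT and at 34.2, 74.6, 78.7 and 74.8 CPM in KO, where WT replicate 4 stood above all others, and its log2 fold change of -0.28 became 0.98 without that library. Mir202 had the smallest p of the class, with 0.203 CPM in WT replicate 1, 0 counts in the other WT libraries and 0.631 to 1.03 CPM in KO. Its log2 fold change of 2.34 (SE 0.67, edgeR adjusted p = 0.154) rests on few reads. A count of 0 allows up to 3 counts, which come to 1.17, 1.58 and 1.08 CPM in WT replicates 2 to 4. None of these libraries alone was deep enough to tell its level from the KO levels. That limit covers counting error only. In the deep libraries Mir202 had 13 counts in WT replicate 1 and 29, 30 and 47 in KO replicates 1 to 3. The log2 fold change within them was 1.76, and it rests on a single WT library.

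miRNAs that mark cell types were read as counts, to see whether other cells moved with genotype. Of 22 listed spermatogenic miRNA genes, such as Mir34b, Mir34c and the X-linked cluster, 19 were tested, with a median log2 fold change of 0.19 and 3 below 0, 1 lower at an unadjusted p under 0.05 and a summed level of 31.6 to 90.1 CPM in WT and 58.8 to 89.6 CPM in KO. The 6 epithelial genes of the miR-200 family and Mir205 had a median of 0.44 and ran in sum from 6.24 to 26.4 CPM in WT and from 18.4 to 28.5 CPM in KO. Of 8 smooth muscle genes 2 were tested, with log2 fold changes of -0.44 and 0.82, and summed levels of 4.23 to 20.2 CPM in WT and 8.58 to 19.7 CPM in KO. Mir451a, a red blood cell miRNA, was at 6.29, 3.51, 2.12 and 4.70 CPM in WT and at 1.45, 47.8, 29.7 and 8.24 CPM in KO, so that KO replicates 2 and 3 stood high and KO replicate 1 below all WT libraries, and the log2 fold change was 2.34 (SE 0.83, edgeR adjusted p = 0.216). Mir144, the other red blood cell gene, had 0.67, and Mir223, a myeloid miRNA, had 0.90 and stayed below 2 CPM in every library. The let-7 family, abundant in many somatic tissues, had a median of 0.42 over 12 genes, with a sum of 206 CPM in WT replicate 4 and 16.8 to 59.9 CPM in the other WT libraries, and 74.9 to 125.1 CPM in KO. The miR-30 and the Mir10, Mir99, Mir100 and Mir125 families had medians of 0.14 over 6 and 0.40 over 7 genes, and the miR-17-92 clusters -0.38 over 9. These list values are with TMM. With library size only, the most abundant members of the spermatogenic, epithelial, let-7 and miR-30 lists turned below 0. Mir34b came to -0.14, Mir200a to -0.04, Mirlet7c-2 to -0.18 and Mir30c-2 to -0.15. The most abundant members of the other lists kept their sign. No defining marker was at 0 in all libraries. The part of other cells in the tRF values was not tested, and fewer cells of a type cannot be told apart from less RNA per cell in such samples.

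piRNA precursors, the long transcripts from which germ cells cut piRNAs, are listed by origin, and the genic and intergenic sets were not tested against each other. The genic precursors had a median log2 fold change of -0.39, with 196 of 241 below 0. With an unadjusted p under 0.05 in edgeR, 21 of the 241 were lower and 0 higher, beside 9.48% and 8.02% of all RNAs. The lower ones were thus no larger a share than among all RNAs. Among the 151 with at least 10 counts in all libraries, 31 were lower, beside 12.3% of all RNAs at that limit. The genic median was -0.23 without WT replicate 4 and -0.18 within the shallow libraries, but 0.13 within the deep libraries. The intergenic precursors had a median of 0.10 over 204, 0.15 within the deep and 0.27 within the shallow libraries, and -0.30 with library size only, where the genic median was -0.73. The intergenic median was also -0.10 with DESeq2 size factors and -0.20 with TMM from other RNAs. Reads from the mRNA of the same gene cannot be told apart from piRNAs in these counts.

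As shares of all counts, tRFs made up 8.39, 4.08, 7.92 and 1.51% in WT and 1.91, 5.04, 3.98 and 2.04% in KO. The means were 5.47% ± 3.27 and 3.24% ± 1.53 (SD, n = 4), the groups overlapped, and a 2-sided exact permutation test over libraries gave p = 0.371 (0.926 after Benjamini-Hochberg adjustment over 18 shares). The log2 ratio of KO to WT, from means of log shares, was -0.60, and it was -0.30 without WT replicate 1, -0.33 without WT replicate 3 and -1.12 without WT replicate 4, where the exact permutation p was 0.114. It was -0.39 without KO replicate 1. Within the deep libraries the share of WT replicate 1 exceeded that of each KO library, with a log2 ratio of -1.32 for the KO mean of log shares, and within the shallow libraries the ratio was -0.84. rsRNAs made up 87.02% ± 4.49 in WT and 88.5% ± 3.4 in KO. All these are shares of counts and not of reads. A read that matches several rRNA copies or isodecoders equally well is counted on each, in its class and in the total. The paper took its percentages from a single primary mapping per read, so they are not comparable with these shares. With only the most counted entry per rRNA type or anticodon, the log2 ratio was -0.59 for tRFs and 0.01 for rsRNAs. 5S fragments made up 6.96, 2.65, 9.28 and 7.88% in WT and 9.46, 10.96, 9.07 and 8.21% in KO (exact permutation p = 0.0857, adjusted 0.514). Genic piRNA precursors made up 0.486% ± 0.372 in WT and 0.217% ± 0.039 in KO, with WT replicate 3 at 1.04% (exact permutation p = 0.0857, adjusted 0.514). The share of reads antisense to tRNAs gave the smallest p that 4 against 4 libraries allow, 0.0286 by the exact permutation test, adjusted 0.514, with 0.122% in WT replicate 3 and 0.000987, 0.00779 and 0.00119% in the other WT libraries. None of the 18 shares passed after adjustment.

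**Figure D4:**
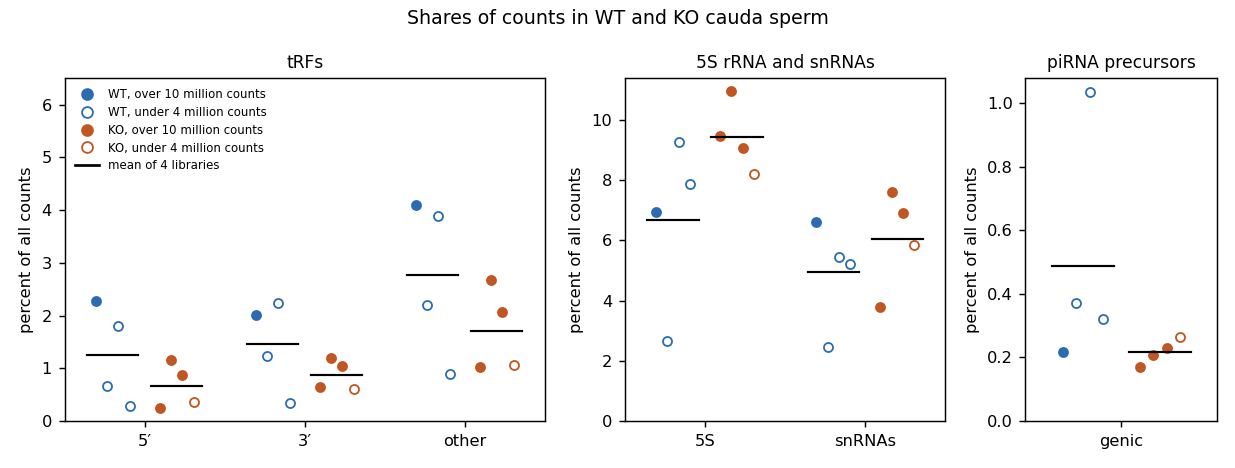
Percent of all counts of a library on 5′, 3′ and other tRFs, on 5S rRNA and snRNAs, and on genic piRNA precursors. Blue points are WT and orange points KO, filled for deep and open for shallow libraries, and bars are means of 4 libraries. WT points for tRFs spread widely, with WT replicate 4 as low as the lowest KO libraries, and the 1 high WT point for piRNA precursors is WT replicate 3.

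The KO effect in sperm was set beside that in cauda fluid and in cauda tissue, each with 3 WT and 3 KO libraries. Over the 2235 RNAs tested in both sperm and fluid, the median log2 fold change of 5′ tRFs was -1.02 in sperm and -0.07 in fluid, that of other tRFs was -0.74 and 0.41, and that of 3′ tRFs was -0.54 and -0.50. For other tRFs, 187 of 196 were below 0 in sperm and 54 in fluid. Over all RNAs the median was -0.17 in sperm and 0.12 in fluid. The median difference, sperm minus fluid, was -0.39 over all RNAs. It was -1.24 for 5′ tRFs, -1.18 for other tRFs and -0.13 for 3′ tRFs. The interaction of genotype and sample type called 0 RNAs below and 0 above (0% each) in edgeR, with a smallest adjusted p of 0.188. At an unadjusted p under 0.05 in edgeR, 254 of all 2235 RNAs were below and 56 above. Of the 179 5′ tRFs, 70 were below and 0 above. Of the 196 other tRFs these were 65 and 0, and of the 180 3′ tRFs 14 and 5. DESeq2 called 33 below (1.52%), 18 of them other tRFs, and 6 above (0.276%), all of them 5S repeats. Without WT sperm replicate 4, edgeR called 69 below (3.07%), of them 15 5′ tRFs and 41 other tRFs, and 1 above (0.0445%). Genic piRNA precursors had a median of -0.51 in sperm and 0.41 in fluid. The medians of both sample types are given with TMM only. The paper reports that most reads of the fluid came from tRFs, while tRFs were a small part of the sperm counts. Values are relative to each library, so the tRF medians of sperm and fluid are not on a like footing.

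Over the 3036 RNAs tested in both sperm and tissue, the medians were -1.14 in sperm and -0.56 in tissue for 5′ tRFs, -0.56 and -0.49 for 3′ tRFs and -0.88 and -0.78 for other tRFs. Other tRFs were below 0 for 203 of 211 in sperm and 210 in tissue. Over all RNAs the median was -0.14 in sperm and 0.05 in tissue, with a median difference of -0.18. The interaction called 0 RNAs in each direction (0%) in edgeR, with a smallest adjusted p of 0.0870. At an unadjusted p under 0.05 in edgeR, 199 of all 3036 RNAs were below and 68 above. DESeq2 called 9 below (0.349%) and 24 above (0.931%), 17 of the latter 28S repeats. Without WT sperm replicate 4, edgeR called 37 below (1.23%) and 14 above (0.465%), the latter all 28S repeats. The tissue libraries were made with ARM-seq, so sample type and library type cannot be told apart there.

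**Figure D5:**
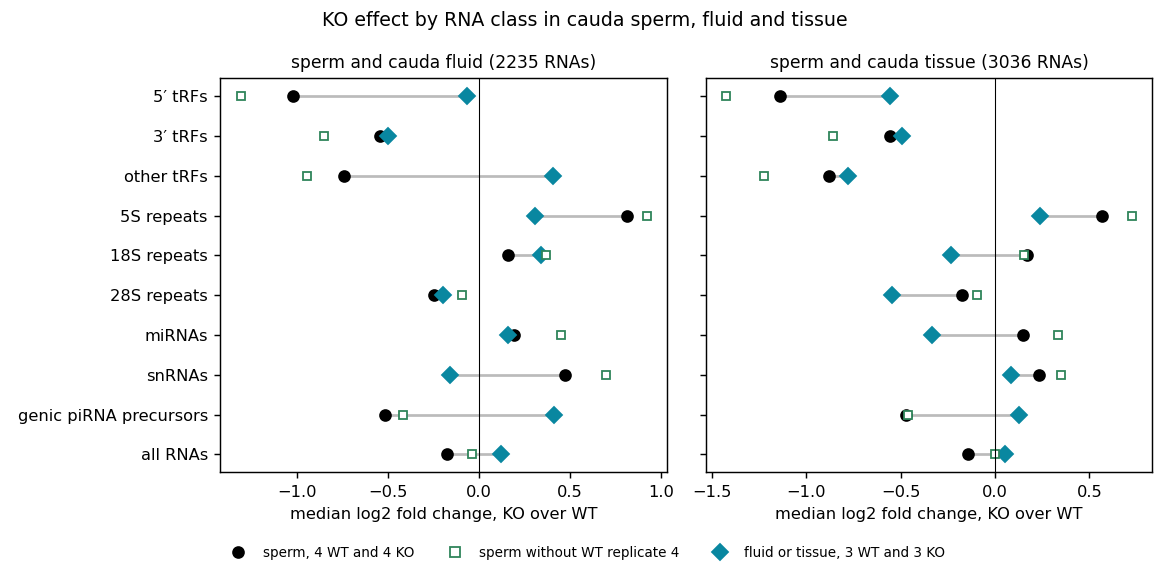
Median log2 fold change of KO over WT by RNA class on the horizontal axis, over the RNAs tested in both sample types, with cauda fluid on the left and cauda tissue on the right. Black points are sperm with 8 libraries, open squares sperm without WT replicate 4 and diamonds fluid or tissue with 6 libraries. The widest gap between class medians in the left panel is that of other tRFs, at -0.74 in sperm and 0.41 in fluid, and the tRF medians lie left of 0 in both sperm and tissue.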

How the data were processed

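The 8 cauda sperm libraries were analyzed, with 6 cauda fluid and 6 cauda tissue libraries for the interaction tests only. The deposited values are read counts per RNA that the authors made, as whole numbers without normalization. Reads were trimmed with cutadapt, mapped with bowtie2 to mm10, mature tRNAs and rRNA sequences in a modified tRAX pipeline, and counted on tRNA fragments, rRNA sequences and repeats, piRNA precursors and Ensembl genes. A read counts on each feature that it matches equally well, so copies share reads: 296 tested RNAs had the same counts as another. UMI-tools is named in the submitters' processing notes, and whether counts are deduplicated is not given in the sources used here. Counting error is only part of the spread, and depth per library is given above.

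Of 4323 RNAs listed, 222 were at 0 in all libraries, and filterByExpr (minimum count 10, minimum total 15) left 2480, scaled with TMM. edgeR 4.0.16 (quasi-likelihood, R 4.3.3) was the test and DESeq2 1.42.0 an alternative, both with Benjamini-Hochberg adjustment over all RNAs. The call threshold was 0.05 on the adjusted p and 1 on the size of the log2 fold change. The coefficient of biological variation was 0.522. CPM is TMM-scaled, and log2 CPM used a prior count of 2. Shares were compared with exact permutation tests, whose smallest p is 0.0286 for 4 against 4 libraries. Replicates differed by more than counting noise in every pair. Python 3.11.15 with pandas 2.3.3, numpy 2.4.6, scipy 1.17.1 and matplotlib 3.10.9 was used for tables and figures, and the fits were tested on simulated counts.

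The RNAs named were the tRF sums of 6 anticodons, the 6 other sums with the smallest p, the 5 sums and 5 miRNA genes highest in WT, the RNA with the smallest p of each class, the rRNA sequences, 6 other noncoding RNAs and the most abundant member of each marker list, 59 entries in all. Others are said to be chosen after their values were seen, as were the U1, U2, U5 and U6 families. The comparison and the lists were chosen with earlier results of these data known. The count tables hold no columns of the authors' own comparisons.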

Additional observations from a re-analysis of the deposited data

Results flagged for a closer look

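A library was taken as standing apart where its gap to the nearest of the other 3 in its group took up more of the group's range than Dixon's 95% limit for 4 values allows. Of 154 groups tested, 13 had such a library, where chance gives about 1 in 20.

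WT replicate 4 stood apart 5 times. It was low in other tRFs of Glu-TTC, at 53.6 CPM beside 314 to 325 in the other WT libraries, and in 5′ tRFs of iMet-CAT, at 14.1 CPM beside 172 to 176. It was high in 5.8S rRNA, at 51840 CPM and 4.74% of counts, and in snoRNAs and scaRNAs, at 1.80% of counts. WT replicate 3 stood apart for pi-Hmbox1.1 at 1317 CPM and for reads antisense to tRNAs at 0.122% of counts. WT replicate 1 was the only WT library with any Mir202 counts, at 0.203 CPM, and it is also the only deep one.

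KO replicate 1 was low in Mir5121 at 34.2 CPM, in Mir16-2 at 17.9 CPM and in Mir16-1 at 17.7 CPM, where the other KO libraries were above 36 CPM for the Mir16 genes. KO replicate 4, the only shallow KO library, was high in Rmrp at 63.8 CPM and in 5.8S at 2.28% of counts. Mir16-1 and Mir16-2 share reads and count as 1 observation.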

How the results depend on the processing

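With edgeR, 0 RNAs were called in either direction under each scaling, each filter on low counts, thinning to the smallest total, the depth term, the deep or shallow libraries alone, and the most counted entry per rRNA type or anticodon. DESeq2 called 135 lower and 5 higher. Leaving out 1 library at a time gave 0 to 207 lower and 0 to 119 higher in edgeR, where the calls came without WT replicate 4, and 34 to 359 lower and 2 to 45 higher in DESeq2, with 34 lower without WT replicate 3. DESeq2 with a depth term called 43 lower and 2 higher. The depth fits and the DESeq2 repeats were chosen after seeing the data. For tRF sums DESeq2 called 20 lower, and leaving out 1 library gave 0 to 54. In the interaction with fluid DESeq2 called 33 below and 6 above, with 0 to 69 and 0 to 1 when 1 library was left out in edgeR, and in that with tissue 9 and 24, with 0 to 37 and 0 to 18. The cause of these moves was not tested.

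Replicate numbers are shared by the groups, and same-numbered libraries deviated together at correlations of -0.21, -0.06, 0.10 and 0.31, so the numbers were not taken as pairs. With the replicate block edgeR called 0 RNAs and 1 tRF sum lower, DESeq2 called 141 lower and 5 higher, and the median of all RNAs was 0.18.

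The median log2 fold change of all RNAs, -0.0028 as reported, was -0.19 with DESeq2 size factors, -0.31 with library size only, -0.20 with TMM from other RNAs, -0.23 over RNAs with 10 counts in all libraries, -0.24 after thinning, 0.18 with a depth term, -0.19 with the most counted entry, and -0.23 to 0.26 when 1 library was left out. The 5S repeat median was 0.45 with library size only and 0.54 to 1.03 when 1 library was left out. The log2 ratio of the miRNA share was -0.11 in the deep libraries and -0.091 to 0.54 when 1 library was left out. tRF class medians stayed below 0 in every alternative run. Of the named RNAs, 976 values kept their side of the threshold and direction, 28 became called, and 114 changed sign where neither value was called. No named RNA was called in the edgeR fit with all 8 libraries, so no called value there could change sign.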
